A study of Mus musculus with 6 samples.

Results

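The genes described here are those through which a pancreatic acinar cell receives a secretory stimulus and handles the calcium that follows: secretagogue receptors, their G proteins and effectors, calcium release channels, calcium pumps, mitochondrial uptake genes, calcium-binding buffer proteins and 2 entry channels. A list of 43 genes was named by function, and a gene was kept where the deposited table holds a tested row for it. This left 41 of 11478 tested genes. The receptor genes Chrm1 and Sctr have no row and were not analysed here. RNA was sequenced from the pancreas of 3 male OCaR1-/- mice and 3 male wild-type mice, all aged 3 weeks, with 1 mouse per sample. The strain is written C57Bl6/N in the protocol and C56Bl6/N in the strain field, and the labels name no other allele, transgene or treatment in either group. They do not describe the construction of the null allele.

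Acetylcholine, cholecystokinin and bombesin-like peptides bind receptors coupled to Gq proteins on acinar cells, and phospholipase C then makes inositol trisphosphate, which opens calcium channels of the endoplasmic reticulum. Secretin and vasoactive intestinal peptide act mainly through cyclic AMP. The calcium signal triggers exocytosis of zymogen granules and is ended by pumps that return calcium to the endoplasmic reticulum, to the Golgi apparatus or out of the cell, while mitochondria and luminal proteins take up and hold part of it. OCaR1 is encoded by Tmem63a, a link that is background knowledge.

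Each level below is the authors' group value for 1 genotype, in FPKM (fragments scaled to transcript length and library size), which combines 3 libraries; no value of a single mouse and no spread between mice was available, and depth is unknown. A gene is called where the q-value of the Cuffdiff test in the authors' deposited table is under 0.05, and log2 fold changes are OCaR1-/- over wild type. Tmem63a itself stood at 4.91 FPKM in OCaR1-/- and 18.3 FPKM in wild-type pancreas (log2 fold change -1.90, with q = 0.00152 by the authors' deposited table). A fixed list of digestive enzyme genes held 52.2% of the summed FPKM in OCaR1-/- and 56.2% in wild type. Removing these genes and setting the remaining sums equal shifts every log2 fold change by -0.17, and the median of all tested genes is then -0.21 instead of -0.03.

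Some members have close relatives, so the sequences bear on how well a level belongs to its gene. Calm2 and Calm3 are shown because they encode one and the same calmodulin of 149 residues, while they share 82.7% of 450 coding bases. The opening 60 coding bases follow (GENCODE M21, GRCm38, coding strand, 5′ to 3′), with the 8 positions that differ between these genes in capitals.

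Calm2 (chromosome 17): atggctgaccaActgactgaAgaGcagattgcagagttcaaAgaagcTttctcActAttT

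Calm3 (chromosome 7): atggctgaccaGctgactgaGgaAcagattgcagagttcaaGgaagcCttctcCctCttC

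The differences are scattered over the stretch. No window of 50 bases, the length of a read, occurred in both the Calm2 and the Calm3 transcript. Over all members, 22 of 41 transcripts held no window of 50 bases that occurs in another annotated gene on either strand, Ppp3ca, Grpr, Trpv6, Cckar and Itpr2 among them. In 6 members over 10% of the windows were shared. Vdac3 shared 47.5%, nearly all with a pseudogene copy, Atp2c1 17.7% with its neighbour Aste1, Ppp3r1 14.7% with Wdr92, Rcn3 14.3% with Gm45669, Calm2 12.7% with 3 genes and Vdac2 10.3% with Gm7832. The authors' treatment of such reads is not given in the sources used here, and levels of these 6 genes are uncertain to that extent.

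A second feature is shared by the luminal calcium-binding proteins of the reticulocalbin family, whose coding sequences end in a retrieval or retention signal of the secretory pathway. The last 15 coding bases are shown because they group the family: capitals mark the final 4 codons, lower case the stop codon.

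Rcn1 (chromosome 2): CATGATGAACTTtga

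Rcn2 (chromosome 9): CATGACGAGCTTtaa

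Rcn3 (chromosome 7): CATGATGAGCTCtga

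Calu (chromosome 6): CATGATGAGTTCtga

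Sdf4 (chromosome 4): CATGAAGAGTTCtga

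The 3 reticulocalbin genes end in codons for histidine, aspartate, glutamate and leucine, the signal that returns proteins to the endoplasmic reticulum. In Calu and Sdf4 phenylalanine takes the place of leucine, and in Sdf4 glutamate also takes that of aspartate. Trpv6 is the only member with no annotated frame that opens with ATG; its frame opens with ACG, shown in capitals at the start of its opening 30 coding bases.

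Trpv6 (chromosome 6): ACGggacctctacagagagaggacaggccg

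Few of these genes differed between genotypes. The authors' deposited table called 2 of the 41 members (4.88%), against 7.54% of all tested genes. Grpr rose (1 of 41 higher, where 4.20% of all tested genes were called higher) and Ppp3ca fell (1 of 41 lower, where 3.35% were called lower). At an unadjusted p under 0.05 in the authors' deposited table there were 7 members (17.1%), against 17.5% of all tested genes: Grpr, Ppp3ca, Trpv6, Atp2a2, Atp2a3, Micu2 and Nucb1. The members' share is therefore close to or below the background by either rule. Their median log2 fold change was -0.03, equal to that of all tested genes to 2 decimals, and the median size of the change was 0.18 for both. In 11 members the change was under 0.1 on the log2 scale, in 22 it lay between 0.1 and 0.3, and in 8 it was 0.3 or more.

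**Figure D1:**
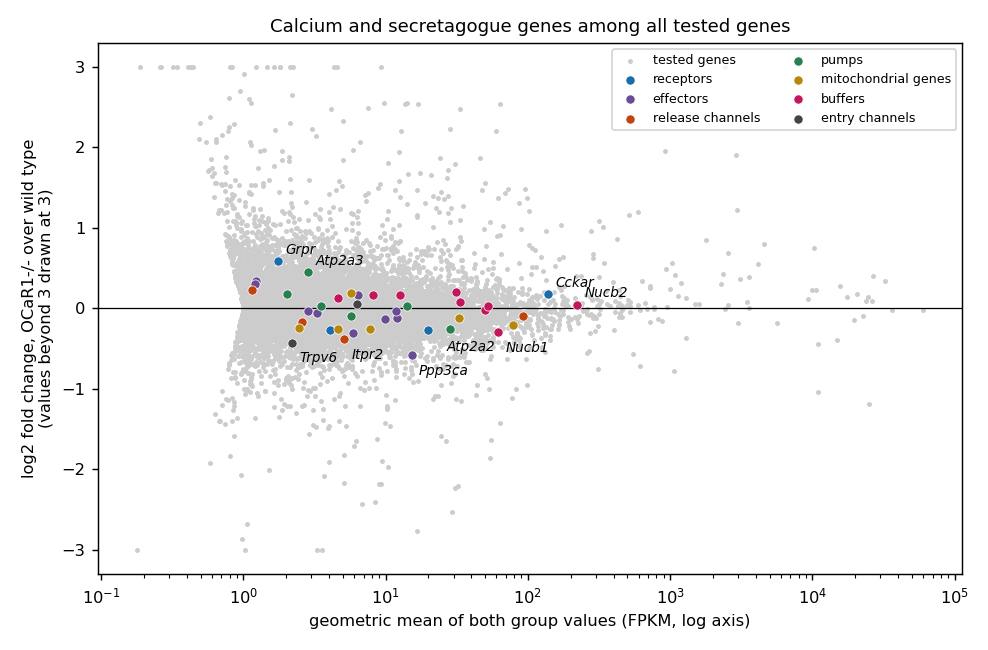
Log2 fold change (OCaR1-/- over wild type) against the geometric mean of both group values in FPKM, for all tested genes with both levels above 0 (grey) and for the 41 members coloured by role; grey values beyond 3 are drawn at 3. The members span from about 1 FPKM to the level of Nucb2, at 226 and 218 FPKM in OCaR1-/- and wild type, and lie between -0.58 and 0.58 on the vertical axis.

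The receptor genes differed widely in level. Cckar, the receptor for cholecystokinin, stood at 148 FPKM in OCaR1-/- and 131 FPKM in wild-type pancreas (log2 fold change 0.18, with q = 0.382 by the authors' deposited table). It was the most abundant receptor of the list in both genotypes, 40.3 times the level of Chrm3 in OCaR1-/- and 29.6 times in wild type. Chrm3, a muscarinic acetylcholine receptor of acinar cells, had 3.67 FPKM in OCaR1-/- and 4.43 FPKM in wild type (log2 fold change -0.27, with q = 0.443 by the authors' deposited table). Vipr1, which binds vasoactive intestinal peptide, had 18.04 FPKM in OCaR1-/- and 21.8 FPKM in wild type, not called (with q = 0.904 by the authors' deposited table).

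Grpr, the receptor for gastrin-releasing peptide and other bombesin-like peptides, was the only called receptor. Its level was 2.14 FPKM in OCaR1-/- and 1.43 FPKM in wild type, 149.8% of the wild-type level (log2 fold change 0.58, with q = 0.00523 by the authors' deposited table). The gene (ENSMUSG00000031364) lies on the minus strand of GRCm38 chromosome X, from 163513904 to 163549677, and its interval is shared with no other row. It was the least abundant of the 4 tested receptors in both genotypes. With a pseudocount of 1 FPKM added to both levels its log2 fold change was 0.37.

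**Figure D2:**
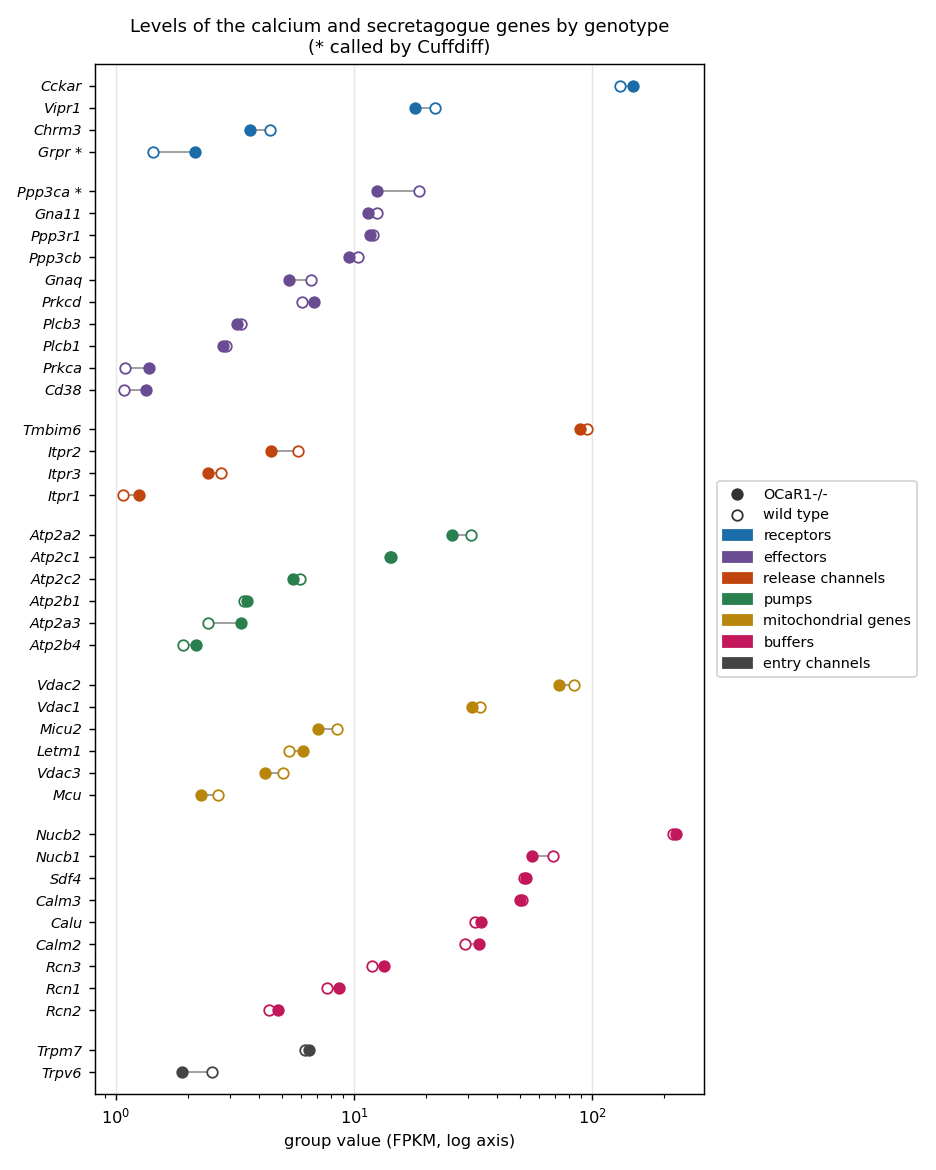
Group values in FPKM on a log axis for the 41 members, filled for OCaR1-/- and open for wild type, ordered within each role by the wild-type level; an asterisk marks a call. Most pairs of points nearly coincide, and the widest gaps are those of Grpr (2.14 and 1.43 FPKM in OCaR1-/- and wild type) and Ppp3ca (12.5 and 18.7 FPKM).

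Among the 10 effector genes the catalytic subunit of calcineurin, the phosphatase activated by calcium and calmodulin, stood out. Ppp3ca fell to 12.5 FPKM in OCaR1-/-, against 18.7 FPKM in wild type, which is 66.8% as much (log2 fold change -0.58, with q = 0.00404 by the authors' deposited table). The gene (ENSMUSG00000028161) lies on the plus strand of chromosome 3, from 136670124 to 136937727, with no other row in its interval. The other subunits of the list were not called. Ppp3cb, a second catalytic subunit, had 9.51 FPKM in OCaR1-/- and 10.4 FPKM in wild type, and the regulatory subunit gene Ppp3r1 had 11.7 and 11.96 FPKM in OCaR1-/- and wild type. Whether the change of Ppp3ca differs from that of Ppp3cb was not tested.

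The genes that carry the signal from receptor to inositol trisphosphate showed no call. Gnaq and Gna11 encode the G protein alpha subunits that activate phospholipase C. Gnaq had 5.34 FPKM in OCaR1-/- and 6.61 FPKM in wild type (log2 fold change -0.31), and Gna11 had 11.5 FPKM in OCaR1-/- and 12.5 FPKM in wild type. The phospholipase genes were almost level between genotypes: Plcb1 stood at 2.82 and 2.89 FPKM, and Plcb3 at 3.23 and 3.35 FPKM, in OCaR1-/- and wild type. The protein kinase C members Prkcd (6.79 FPKM in OCaR1-/- and 6.06 FPKM in wild type) and Prkca (1.38 and 1.09 FPKM) were not called, and the log2 fold change of Prkcd was 0.16 as deposited and -0.0096 after rescaling. Cd38, an enzyme that makes calcium-mobilising nucleotides, had 1.34 FPKM in OCaR1-/- and 1.08 FPKM in wild type (with q = 0.330 by the authors' deposited table). Prkca and Cd38, both near 1 FPKM, had log2 fold changes of 0.34 and 0.30. With a pseudocount of 1 FPKM these were 0.19 and 0.17. Of the 10 effectors, 3 had a higher and 7 a lower level in OCaR1-/-, with a median log2 fold change of -0.05, near that of all tested genes.

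Calcium release channels of the endoplasmic reticulum were not called, by Cuffdiff or at an unadjusted p under 0.05. Itpr2 had 4.47 FPKM in OCaR1-/- and 5.81 FPKM in wild type (log2 fold change -0.38, with q = 0.641 by the authors' deposited table). Itpr3 had 2.44 FPKM in OCaR1-/- and 2.76 FPKM in wild type (log2 fold change -0.17, with q = 0.434 by the authors' deposited table). These are the inositol trisphosphate receptor types that carry acinar calcium release in mice. The interval of Itpr2 in the table is shared with the pseudogene Gm15720, which lies within an overlapping span on the same strand. Gm15720 had 3.54 FPKM in OCaR1-/- and 4.14 FPKM in wild type, and its part in the value of Itpr2 was not tested. Itpr1, which prevails in neurons and smooth muscle, had 1.25 FPKM in OCaR1-/- and 1.07 FPKM in wild type (log2 fold change 0.23). Its levels were near 1 FPKM, and with a pseudocount of 1 FPKM its log2 fold change was 0.12. Tmbim6, a protein through which calcium leaks from the endoplasmic reticulum, was far more abundant, at 89.2 FPKM in OCaR1-/- and 95.3 FPKM in wild type.

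The calcium pumps of the endoplasmic reticulum had opposite signs without reaching the threshold. Atp2a2, the main pump of this kind in most tissues, stood at 25.9 FPKM in OCaR1-/- and 31.0 FPKM in wild type (log2 fold change -0.26, with unadjusted p = 0.0109 and q = 0.108 by the authors' deposited table). Atp2a3, known from blood, endothelial and some epithelial cells, stood at 3.35 FPKM in OCaR1-/- and 2.45 FPKM in wild type (log2 fold change 0.45, with unadjusted p = 0.0183 and q = 0.153 by the authors' deposited table). Atp2a2 was thus 7.74 times as abundant as Atp2a3 in OCaR1-/- and 12.7 times in wild type; the change in this ratio was not tested. The interval of Atp2a2 in the table is shared with Anapc7, which had 4.29 FPKM in OCaR1-/- and 4.89 FPKM in wild type.

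Pumps of the plasma membrane and of the Golgi apparatus had nearly equal levels. Atp2b1, a pump that exports calcium from the cell, had 3.55 FPKM in OCaR1-/- and 3.46 FPKM in wild type. Atp2b4, of the same family, had 2.16 FPKM in OCaR1-/- and 1.91 FPKM in wild type. The Golgi pump genes Atp2c1 (14.4 FPKM in OCaR1-/- and 14.1 FPKM in wild type) and Atp2c2 (5.54 and 5.94 FPKM) had log2 fold changes of 0.03 and -0.10. The lowest q of the 4 was 0.756, for Atp2c2, in the authors' deposited table.

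Genes of mitochondrial calcium uptake had lower levels in OCaR1-/- in 5 of 6 cases, none of them called. Mcu, the pore of the uniporter of the inner membrane, had 2.27 FPKM in OCaR1-/- and 2.68 FPKM in wild type (log2 fold change -0.24, with q = 0.438 by the authors' deposited table). Micu2, which gates that pore, had 7.08 FPKM in OCaR1-/- and 8.46 FPKM in wild type, the smallest p of the group (unadjusted p = 0.0224 and q = 0.173 by the authors' deposited table). The ratio of Mcu to Micu2 was 0.320 in OCaR1-/- and 0.317 in wild type.

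The genes for channels of the outer mitochondrial membrane also had lower levels in OCaR1-/-. Vdac2 had 72.8 FPKM in OCaR1-/- and 83.9 FPKM in wild type, Vdac1 had 31.2 FPKM in OCaR1-/- and 33.9 FPKM in wild type, and Vdac3 had 4.22 FPKM in OCaR1-/- and 5.03 FPKM in wild type. Letm1, a cation exchanger gene of the inner membrane, was the exception, at 6.08 FPKM in OCaR1-/- and 5.32 FPKM in wild type (with q = 0.742 by the authors' deposited table). The median log2 fold change of the 6 genes was -0.22, the lowest of the roles with more than 2 genes, beside -0.03 for all tested genes. After rescaling without digestive enzymes 5 were lower and 1 higher, where 8705 of 11441 tested genes were lower. That rescaling lowers every log2 fold change, so the 5 lower genes could only stay lower. Centring on all tested genes, a smaller shift than any of the 6 changes, could not alter the count.

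The buffer genes leaned the other way by small amounts. Of 9 tested, 7 had a higher level in OCaR1-/-, with a median log2 fold change of 0.08. Rescaled without digestive enzymes, 1 of 9 was higher and the median was -0.09. Of all tested genes 2736 of 11441 were then higher, with a median of -0.21. Centred on all tested genes, 8 of 9 buffers were higher and their median was 0.12. Calm2 stood at 33.5 FPKM in OCaR1-/- and 29.2 FPKM in wild type (log2 fold change 0.20, with q = 0.349 by the authors' deposited table), and Calm3, which encodes the same calmodulin, at 49.8 FPKM in OCaR1-/- and 50.7 FPKM in wild type. The reticulocalbin genes, all with the endoplasmic reticulum signal shown above, had log2 fold changes of 0.16 (Rcn1), 0.12 (Rcn2) and 0.17 (Rcn3). Their levels were 8.63, 4.80 and 13.4 FPKM in OCaR1-/- and 7.71, 4.41 and 11.9 FPKM in wild type. Calu, a calcium-binding protein of the secretory pathway, had 34.2 FPKM in OCaR1-/- and 32.3 FPKM in wild type, and Sdf4, a calcium-binding protein of the Golgi lumen, had 52.6 FPKM in OCaR1-/- and 51.6 FPKM in wild type. None of these was called.

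Nucleobindins were the most abundant buffers and differed from each other in sign. Nucb2, a calcium-binding protein that is also the precursor of the peptide nesfatin, had 226 FPKM in OCaR1-/- and 218 FPKM in wild type, the highest level of all members. Nucb1, a calcium-binding protein of the Golgi apparatus, had 56.0 FPKM in OCaR1-/- and 68.5 FPKM in wild type (log2 fold change -0.29, with unadjusted p = 0.0403 and q = 0.249 by the authors' deposited table). The interval of Nucb1 is shared with Ppp1r15a, a stress response gene, which had 6.98 FPKM in OCaR1-/- and 10.7 FPKM in wild type (with q = 0.547 by the authors' deposited table). The part of shared reads in the value of Nucb1 was not tested, and the annotated spans of these 2 genes in GENCODE M21 do not overlap.

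Trpv6, a highly calcium-selective channel of epithelial plasma membranes, came closest to a call without reaching it. It had 1.89 FPKM in OCaR1-/- and 2.54 FPKM in wild type, 74.6% of the wild-type level (log2 fold change -0.42, with q = 0.0511 by the authors' deposited table). Trpm7, a channel for magnesium and calcium fused to a kinase, had 6.46 FPKM in OCaR1-/- and 6.21 FPKM in wild type.

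**Figure D3:**
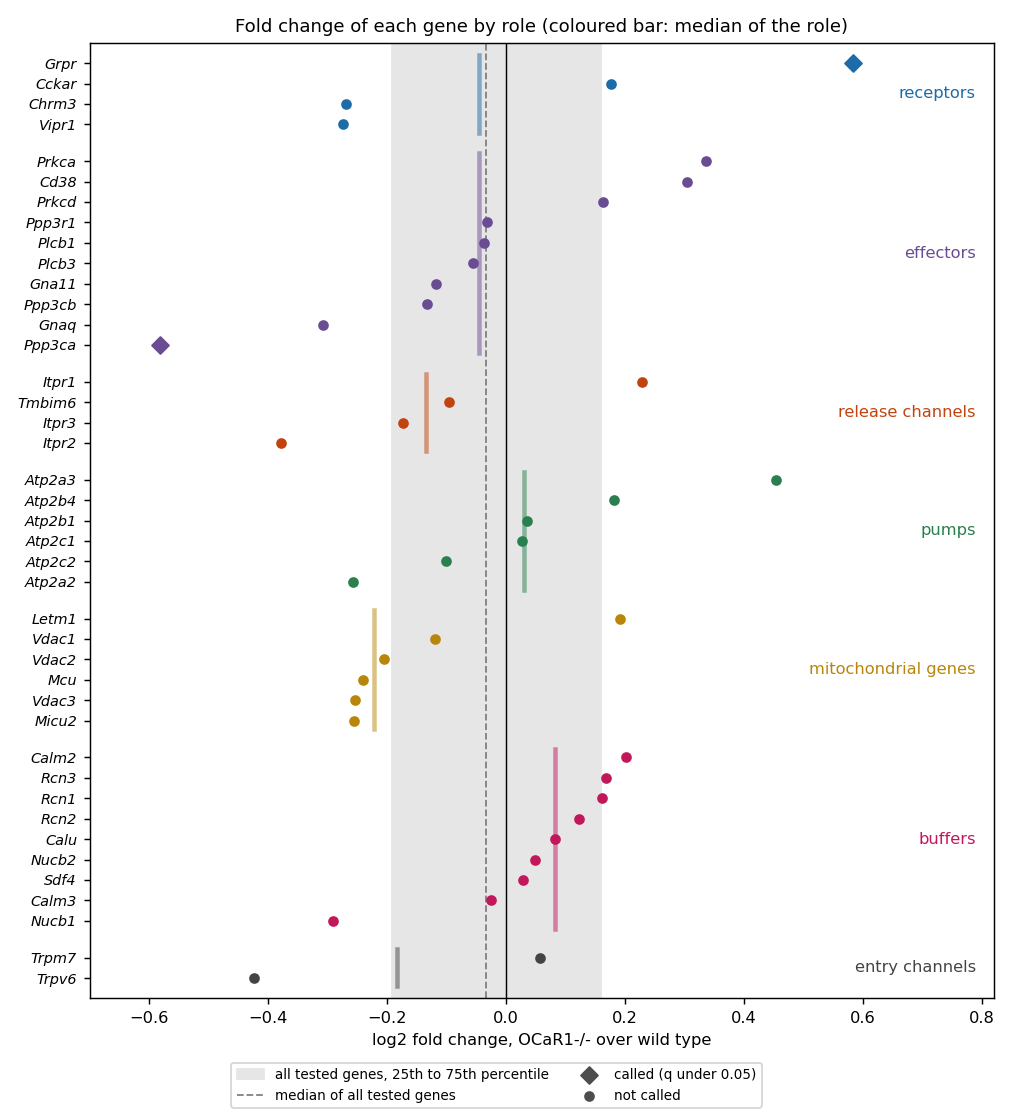
Log2 fold change (OCaR1-/- over wild type) of each member, grouped by role, with the median of each role as a coloured bar and calls as diamonds; the grey band runs from the 25th to the 75th percentile of all tested genes (-0.19 to 0.16). Of the 41 members, 17 lie within the band, 12 below it and 12 above it, and the mitochondrial genes have the lowest median of the roles with more than 2 genes (-0.22).

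The balance between paralogs was described from their FPKM, which is scaled to length. Itpr2 held 54.8% of the summed level of the 3 inositol trisphosphate receptor genes in OCaR1-/- and 60.3% in wild type, Itpr3 held 29.9% and 28.6%, and Itpr1 held 15.3% and 11.1%. Atp2a3 held 11.5% of the level of the 2 measured endoplasmic reticulum pump genes in OCaR1-/- and 7.32% in wild type. Ppp3ca held 53.4% of the summed catalytic calcineurin level in OCaR1-/- and 60.6% in wild type, where the sum of Ppp3ca, Ppp3cb and Ppp3cc was 23.4 FPKM in OCaR1-/- and 30.8 FPKM in wild type. Nucb2 held 80.1% of the nucleobindin level in OCaR1-/- and 76.1% in wild type. In each of these 4 families the order of the genes by level was the same in both genotypes. Each voltage-dependent anion channel gene had a similar share in OCaR1-/- and in wild type (Vdac2 67.3% in OCaR1-/- and 68.3% in wild type). None of these shares has a replicate error, and none was tested.

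**Figure D4:**
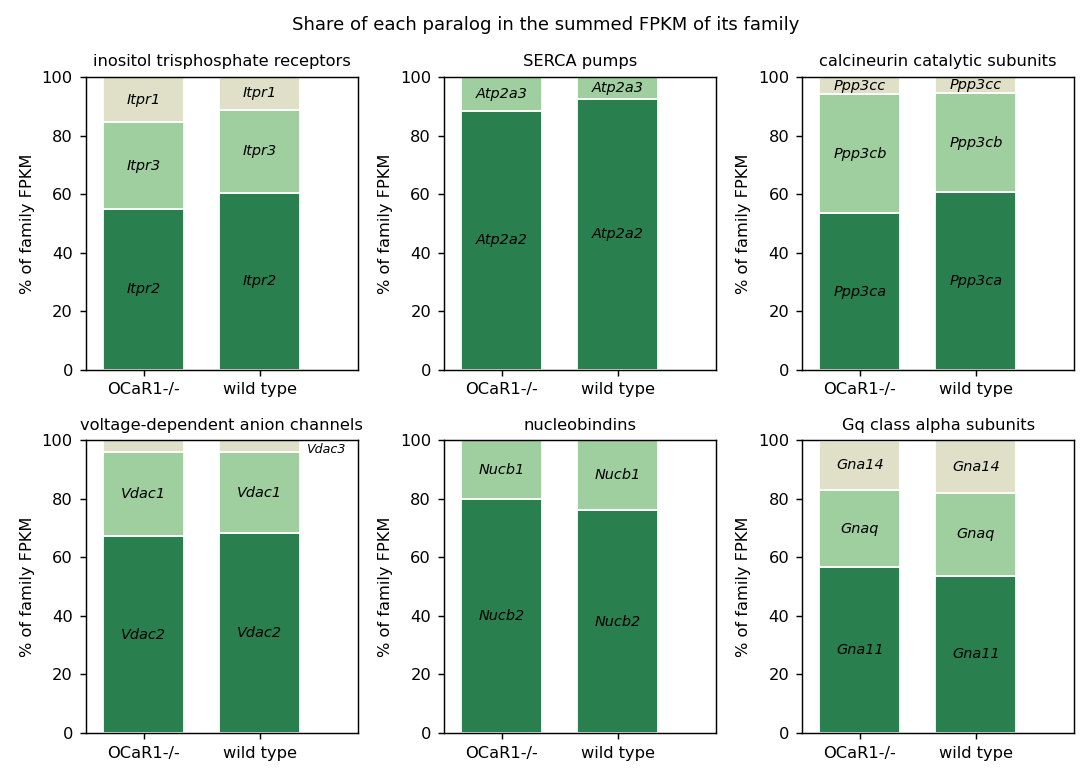
Share of each paralog in the summed FPKM of its family, in percent, with OCaR1-/- left and wild type right in each panel. The largest gene of each family is the same in both genotypes, with Ppp3ca at 53.4% in OCaR1-/- and 60.6% in wild type and Atp2a3 at 11.5% and 7.32%.

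The other genes of the pathway were taken from 10 lists. Of 157 tested genes that are not among the members, 7 were called higher and 7 lower by Cuffdiff (8.92%, against 7.54% of all tested genes), with a median log2 fold change of -0.01. The shares called in the lists next to Ppp3ca in function lay near that of all tested genes. Rcan2, a regulator that binds calcineurin, fell to 3.66 FPKM in OCaR1-/-, against 5.50 FPKM in wild type (with q = 0.0334 by the authors' deposited table), and was the only call among 15 genes of calcineurin regulation and NFAT factors (6.67%). Camk1d, a kinase activated by calmodulin, fell to 3.54 FPKM in OCaR1-/-, against 5.61 FPKM in wild type (with q = 0.00404 by the authors' deposited table), the only call among the 9 tested genes of the calmodulin kinase list (11.1%).

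Upstream of calcium release, 2 of 31 genes of G proteins, phospholipase C and protein kinase C were called, both higher (6.45%, below the 7.54% of all tested genes). Marcks, a substrate of protein kinase C, rose to 13.9 FPKM in OCaR1-/-, against 10.6 FPKM in wild type, and Prkch, a protein kinase C gene, to 1.31 FPKM in OCaR1-/-, against 0.917 FPKM in wild type. Every deposited row reaches 1 FPKM in 1 genotype, so Prkch was listed only through OCaR1-/- and its direction was fixed. Plcb4 was the most abundant phospholipase C beta gene, at 5.98 FPKM in OCaR1-/- and 7.24 FPKM in wild type, and gave no call. Of 21 genes of the cyclic AMP branch 2 were called (9.52%): the adenylyl cyclase gene Adcy7 rose (log2 fold change 0.69) and Adcy9, in an interval shared with another row, fell (log2 fold change -0.44). The direction of Adcy7, at 0.624 FPKM in wild type, was fixed as that of Prkch was. Among 26 genes of inositol trisphosphate receptor partners and inositol phosphate metabolism 2 were called (7.69%). Itpka, a kinase that phosphorylates inositol trisphosphate, fell to 1.15 FPKM in OCaR1-/-, against 2.05 FPKM in wild type (with q = 0.00152 by the authors' deposited table), and Itpripl2 rose (log2 fold change 0.44).

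Chaperones and buffers outside the members held calls in 2 lists. Of 12 genes in the list of luminal calcium-binding proteins and chaperones, 2 were called (16.7%, against 7.54% of all tested genes), both lower. Stc2, which encodes a secreted glycoprotein rather than a chaperone, fell to 11.4 FPKM in OCaR1-/-, against 21.5 FPKM in wild type, and Sdf2l1 fell to 75.5 FPKM in OCaR1-/-, against 93.01 FPKM in wild type. The classical luminal calcium buffer Calr had 186 FPKM in OCaR1-/- and 180 FPKM in wild type, and the chaperone gene Hspa5 had 369 FPKM in OCaR1-/- and 444 FPKM in wild type, both without a call. Of 18 cytosolic calcium-binding genes 4 were called (22.2%): the authors' deposited table called S100a10 (log2 fold change 0.67), S100a11 (0.49) and the centrin gene Cetn2 (0.47) higher and Hpcal1, a calcium sensor gene, lower (-0.41). In that list 16 of 18 genes had a higher level in OCaR1-/-. After rescaling without digestive enzymes 10 of 18 were higher, where 2736 of 11441 tested genes were.

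Further mitochondrial and plasma membrane genes held no call by Cuffdiff. Of 16 other mitochondrial calcium genes 3 had an unadjusted p under 0.05, 11 had a lower level in OCaR1-/-, and the median log2 fold change was -0.14. These 3 differed in direction: Ccdc109b, a paralog of Mcu, had 1.72 FPKM in OCaR1-/- and 0.822 FPKM in wild type (log2 fold change 1.06), Efhd2 had 9.87 FPKM in OCaR1-/- and 8.42 FPKM in wild type, and Ghitm had 31.9 FPKM in OCaR1-/- and 36.6 FPKM in wild type. Ccdc109b was under the 1 FPKM limit in wild type, which fixed its direction. Of 6 other calcium-permeable channel genes, 2 had an unadjusted p under 0.05: the ATP-gated channel P2rx1 had 25.4 FPKM in OCaR1-/- and 31.0 FPKM in wild type (with q = 0.0566 by the authors' deposited table), and Trpm4, a cation channel opened by calcium, had 2.83 FPKM in OCaR1-/- and 4.67 FPKM in wild type (with q = 0.0638 by the authors' deposited table). The 3 tested genes of other pumps and exchangers had no unadjusted p under 0.05.

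**Figure D5:**
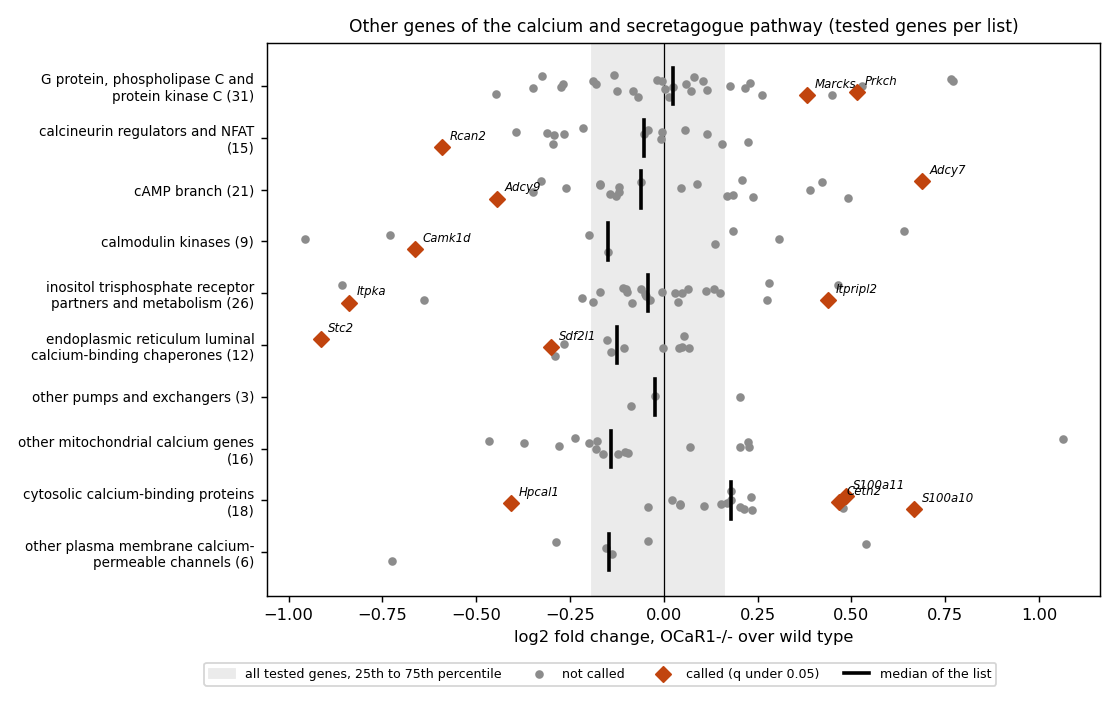
Log2 fold change (OCaR1-/- over wild type) of the other pathway genes, 1 row per list with its number of tested genes, calls as diamonds and the list's median as a black bar; the grey band is that of all tested genes (-0.19 to 0.16). The 14 calls are split into 7 higher and 7 lower, and the cytosolic calcium-binding genes have the highest median (0.18).

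Markers of other cell types moved in the same samples, and several members are not specific to acinar cells. Of the marker genes tested, 10 of 13 for islets, 8 of 9 for macrophages, 6 of 7 for fat cells, 4 of 7 for endothelium and 4 of 8 for stellate cells and fibroblasts were called, each of them higher in OCaR1-/-, in the authors' deposited table. Their summed levels were 4125, 117, 194, 45.6 and 418 FPKM in OCaR1-/- and 2571, 66.8, 87.2, 33.9 and 326 FPKM in wild type. Across all tested genes 4.20% were called higher and 3.35% lower. Kdr of the endothelial list went the other way (log2 fold change -0.24, with q = 0.202 by the authors' deposited table). Smooth muscle markers had 5 of 7 called lower, with sums of 31.9 FPKM in OCaR1-/- and 67.9 FPKM in wild type, while Smtn of this list had 4.30 FPKM in OCaR1-/- and 3.83 FPKM in wild type. Emr1, Mpeg1 and Retn were under 1 FPKM in wild type, and Actg2 and Cnn1 were under 1 FPKM in OCaR1-/-. Every deposited row reaches 1 FPKM in 1 genotype, and this limit fixed the direction of such genes. Of 7 acinar markers Ptf1a and Pnlip were called lower, and 2 had a higher and 5 a lower level in OCaR1-/-. The sums were 63131 FPKM in OCaR1-/- and 65650 FPKM in wild type, mostly from Pnlip, Cel and Cpa1, which differed in direction. Their levels were 7662, 30443.5 and 21972 FPKM in OCaR1-/- and 15748, 22959.7 and 23509 FPKM in wild type. Ptf1a had 27.2 FPKM in OCaR1-/- and 40.9 FPKM in wild type. Of 6 duct markers Sox9 was called higher, and the sums were 235 FPKM in OCaR1-/- and 217 FPKM in wild type. Onecut1 was the only duct marker with a lower level in OCaR1-/- (log2 fold change -0.39, with q = 0.322 by the authors' deposited table). Of 9 B and T cell markers 2 were tested, and Igj was called higher, at 5.03 FPKM in OCaR1-/- and 1.66 FPKM in wild type. Cd79b had 1.25 FPKM in OCaR1-/- and 0.859 FPKM in wild type, a direction fixed by the same limit. Of 7 intestine and liver markers 2 were tested, both with a lower level in OCaR1-/-, and Alb was called, at 0.746 FPKM in OCaR1-/- and 1.39 FPKM in wild type. The limit of 1 FPKM fixed the direction of Alb too. The only tested nerve and Schwann cell marker of 8, Uchl1, had 1.12 FPKM in OCaR1-/- and 1.04 FPKM in wild type. The part of these cell types in the values of Grpr, Ppp3ca and the other members was not tested. In whole pancreas, fewer cells of a type and less RNA per cell cannot be told apart.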

How the data were processed

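Pancreas RNA of 6 mice (3 OCaR1-/-, 3 wild type) was sequenced as single reads of 50 bases after poly(A) selection of 2.5 µg RNA, with RNA integrity numbers from 8.20 to 9.10, per the labels' protocols. STAR 2.5.1b, Cufflinks 2.2.1, Cuffdiff and the build GRCm38 were used, per the submitters' processing notes; annotation release, strand, multimapping and scaling: not given in the sources used here. A deposited gene table has 12016 rows, of which 538 are marked as not tested and were left out. Per the file headers, it gives 1 FPKM value per genotype, made by the authors from 3 libraries, with the p-value and the q-value that the authors deposited; the columns of single samples numbered 0. Every row reaches 1 FPKM in 1 genotype (lowest 1.00006), so genes below that in both were not analysed here. A gene under 1 FPKM in 1 genotype is listed only through its level in the other, which fixes its direction. Depth is unknown, and no interval or detection limit is given. The p-values are those of the authors' Cuffdiff test of 3 against 3 libraries, and the spread between mice behind them could not be checked.

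The deposited fold change column was not used, since 365 rows hold text or values beyond any log2 range. Log2 ratios were instead taken from both deposited FPKM levels with no pseudocount; a level under 0.01 FPKM was treated as listed at 0, which left 37 tested genes without one. Limma on values per library, planned for a table with such values, could not be run, so calls are the authors'. Intervals were shifted to start at 1; 8 members share theirs with another row (Gnaq, Ppp3cb, Ppp3r1, Itpr2, Atp2a2, Atp2c1, Vdac2 and Nucb1), and 22 of 41 have the same span in GENCODE M21. Windows of 50 bases were taken from the GENCODE transcript with the longest frame per gene and sought in all other genes' transcripts on both strands. Members, roles, lists and the alternatives were chosen with earlier results of these data known. Named genes were the called members, the 3 smallest p per role, Cckar, Chrm3, Itpr2, Itpr3, Atp2a2 and Mcu, the extremes in level, and up to 4 called genes per list; the remaining members and the uncalled list genes were named after their values were seen. The adjustment and fold change code was tested on simulated data. Python 3.11.15, pandas 2.3.3 and scipy 1.17.1 were used. Some genes of the lists are counted but not reported by name here.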

Additional observations from a re-analysis of the deposited data

How the results depend on the processing

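No paired analysis was possible because the table gives 1 combined value per genotype; leaving out single replicates and a replicate block were not run for the same reason, so the spread between mice cannot be shown. The calls of Grpr and Ppp3ca were also made when the deposited p-values were adjusted again over all tested genes. That adjustment started from the same p-values as the deposited q-values, so it could hardly change these calls. Neither gene lies in a shared interval, so leaving out genes in shared intervals could not remove these calls. That setting and the limit of 5 FPKM below only dropped rows and made no new test. Among the members there were 7 calls at an unadjusted p under 0.05 and 1 (Ppp3ca) with at least 5 FPKM in either genotype; over all tested genes these counts were 2006 and 497 instead of 866, and over the other pathway genes 29 and 9 instead of 14 (the last chosen after seeing the data). Role medians moved with scaling. Rescaled without digestive enzymes, the median log2 fold change was -0.21 for all members (9 of 41 higher instead of 19), -0.22 for receptors and for effectors, -0.31 for release channels, -0.14 for pumps, -0.40 for mitochondrial genes and -0.0903 for buffers. For all tested genes the median was then also -0.21, with 2736 of 11441 higher. With at least 5 FPKM in either genotype the median was -0.10 for the 27 members kept. By role it was then -0.05 for receptors, -0.13 for effectors, -0.24 for release channels, -0.10 for pumps, -0.20 for mitochondrial genes and 0.07 for buffers. Without members in a shared interval the median of the 33 members left was 0.03. The median of all tested genes under these filters is not given here. Over these scalings and pseudocounts the log2 fold change of Grpr lay at 0.37 to 0.62 and that of Ppp3ca at -0.75 to -0.55. An equal pseudocount on both levels cannot change a sign. Rescaling and centring shift every gene by less than the size of either change, so these signs could not change.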
